A study of Mus musculus with 12 samples.

Results

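Glycolysis in lung lymphatic endothelial cells (LECs) was followed through 10 genes, Slc2a1, Hk1, Hk2, Pfkfb3, Pfkl, Aldoa, Pgk1, Eno1, Pkm and Ldha. They were chosen by symbol, as the rows of the count data whose Ensembl identifiers carry these names in the GENCODE M21 annotation, with pseudogenes left out. Of 52636 rows, 11 carried one of the 10 symbols. The additional row was a second Aldoa identifier (ENSMUSG00000114515), which did not pass the filter on low counts, so that 10 of 10 genes entered the tests through a single row each.

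Glycolysis splits glucose into pyruvate in the cytosol and yields ATP without oxygen. Endothelial cells are known to rely on it for much of their ATP, and PFKFB3, which makes the activator of phosphofructokinase, is a known regulator of vessel sprouting. Lymphatic endothelium is specified by the transcription factor PROX1, and lymphatic vessels drain fluid and immune cells from the lung. Several glycolytic genes are known targets of hypoxia-inducible factors (HIF), which bind a short core sequence in promoters. Glucose can also leave glycolysis after its first step for the pentose phosphate pathway, which supplies NADPH and pentoses.

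RNA was sequenced from LECs sorted from lungs of Prox1-EGFP mice, in which Prox1 regulatory sequence drives GFP, in 12 libraries. There were 2 libraries from mice that breathed cigarette smoke (CS) for 8 weeks (acute CS), 2 from room air (RA) controls of that time (acute RA), 5 after at least 24 weeks of smoke (chronic CS) and 3 from matching controls (chronic RA). Exposure began at 6 weeks of age by the methods, whereas the sample labels write the first time as an age and call the later mice aged. Every library came from live cells positive for CD31 and GFP and negative for EPCAM and a hematopoietic lineage cocktail, and all mice carried the reporter. Each acute library pooled 2 to 5 mice and chronic libraries were not pooled, so pooling and length of exposure cannot be told apart. Each acute group held 1 female (F) and 1 male (M) library, and the chronic groups held 1 female library each, with males numbered M1 to M4. Whether libraries of a group came from separate cages or days was not given, and p-values measure the spread between these libraries.

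Total counts ranged from 18821438 to 56998590 per library. A gene was called changed when the quasi-likelihood test of edgeR gave a p under 0.05 after Benjamini-Hochberg adjustment over 21440 genes. The 8 lymphatic markers were all detected, with summed levels of 13984 to 15700 CPM in acute RA, 6048 to 9282 CPM in acute CS, 18892 to 21768 CPM in chronic RA and 13856 to 20398 CPM in chronic CS, where CPM is the count over the TMM-scaled library size, as edgeR gives it. The 8 leukocyte markers summed to 235 to 241 CPM in acute RA, 1383 to 1884 CPM in acute CS, 149 to 222 CPM in chronic RA and 143 to 382 CPM in chronic CS. The 10 alveolar macrophage markers summed to 689 to 774 CPM in acute RA and 2233 to 2309 CPM in acute CS. Most of the sum in acute RA was Mrc1, which was called lower after acute CS (log2 fold change -0.94, adjusted p = 0.0155 by edgeR), and the other 9 summed to 57.4 to 111 CPM and 1898 to 1967 CPM. Lymphoid markers (10 genes) summed to 22.4 to 25.5 CPM in acute RA and 221 to 260.3 CPM in acute CS, and mesenchymal markers (11 genes) to 147 to 217 CPM and 668 to 1039 CPM. The 12 blood endothelial markers, some of which LECs share, summed to 11549 to 13384 CPM in acute RA and 13414 to 13693 CPM in acute CS. The acute CS libraries differed from each other in the 8 neutrophil markers, at 1191 CPM in F and 25.6 CPM in M, in the 10 alveolar epithelial markers, at 8704 and 271 CPM, and in the 7 erythroid markers found, at 10.7 and 698 CPM. In acute RA these lay at 10.9 to 29.5 CPM, 1065 to 1848 CPM and 37.7 to 69.9 CPM. The part of other cells in the results below was not tested, and in bulk RNA fewer cells of a type cannot be told apart from less RNA per cell.

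To show the sequence context of the genes with the lowest p after acute CS, the 250 bases before a transcription start are printed for Ldha, Pfkfb3 and Pkm, at the start with the most matches to the HIF core. They are from RefSeq on GRCm38.p6, read 5′ to 3′ on the strand of the gene, and capitals mark the cores ACGTG and GCGTG on either strand, where the other strand reads as CACGT and as CACGC. A run of CACGTG holds the first core on both strands and counts as 2 matches. The windows are chr7:46845554-46845803 on the plus strand for Ldha, chr2:11502091-11502340 on the minus strand for Pfkfb3 and chr9:59656977-59657226 on the plus strand for Pkm.
Ldha: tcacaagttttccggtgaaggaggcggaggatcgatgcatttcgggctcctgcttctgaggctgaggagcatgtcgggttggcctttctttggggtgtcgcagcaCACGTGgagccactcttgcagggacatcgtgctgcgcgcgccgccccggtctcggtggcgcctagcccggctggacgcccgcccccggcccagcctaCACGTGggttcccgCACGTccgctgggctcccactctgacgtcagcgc
Pfkfb3: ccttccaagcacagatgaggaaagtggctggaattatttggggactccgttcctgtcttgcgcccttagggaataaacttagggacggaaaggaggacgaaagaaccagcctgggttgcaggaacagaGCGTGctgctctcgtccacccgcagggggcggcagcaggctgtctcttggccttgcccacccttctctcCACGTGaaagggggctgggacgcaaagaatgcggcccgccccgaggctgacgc
Pkm: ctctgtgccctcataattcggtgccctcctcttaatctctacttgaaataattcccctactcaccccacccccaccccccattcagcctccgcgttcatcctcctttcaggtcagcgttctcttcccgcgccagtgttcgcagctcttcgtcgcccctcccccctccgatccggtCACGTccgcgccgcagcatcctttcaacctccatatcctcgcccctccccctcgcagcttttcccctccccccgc

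The Ldha window held 5 matches, including CACGTG at 2 places, the Pfkfb3 window held 3, including CACGTG once, and the Pkm window held 1. All 10 genes had a window in the RefSeq table, with 18 starts between them, some of which overlap. Either core was found in 15 of the 18 windows, against 38.6% of 32851 windows of the same length in the mouse table, and 2 or more matches in 8 of the 18, against 16.7%. The windows of these genes were richer in G and C than the rest, with a median of 64.6% against 52.4%. ACGTG alone was found in 16.6% of all windows, GCGTG in 28.2% and CACGTG in 6.02%. A match is a run of letters and not a measured binding site, and counts per gene do not tell which start was used.

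Levels per length were ordered over the 5 room air libraries as FPKM, the CPM divided by the exon length in kilobases. Aldoa, which encodes the aldolase that cleaves fructose 1,6-bisphosphate, was the highest at 160.4 ± 14.4 FPKM (mean ± SD, n = 5), followed by the pyruvate kinase gene Pkm at 124 ± 16.0 FPKM. Ldha, whose product turns pyruvate into lactate, lay at 62.0 ± 2.27 FPKM, the enolase gene Eno1 at 40.4 ± 2.45 FPKM and the phosphoglycerate kinase gene Pgk1 at 21.7 ± 1.42 FPKM. The enzymes from the cleavage of fructose 1,6-bisphosphate onward thus took the first 5 places, and none of their ranges overlapped with the next.

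Hk1, the hexokinase that traps glucose in the cell, followed at 17.4 ± 1.08 FPKM. Pfkl, a subunit of phosphofructokinase, lay at 11.5 ± 1.2 FPKM, Pfkfb3 at 7.70 ± 1.65 FPKM and the glucose transporter gene Slc2a1 at 6.88 ± 1.84 FPKM. The range of Pfkl overlapped with that of Pfkfb3 and the range of Pfkfb3 with that of Slc2a1. Within libraries, Pfkl was above Pfkfb3 in 5 of 5 and Pfkfb3 above Slc2a1 in 4 of 5, so that only the second order changed between libraries. Hk2, the inducible hexokinase, was lowest at 0.215 ± 0.193 FPKM, with 0 counts in chronic RA M2, where a floor of 3 counts is worth 0.0844 CPM.

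**Figure D1:**
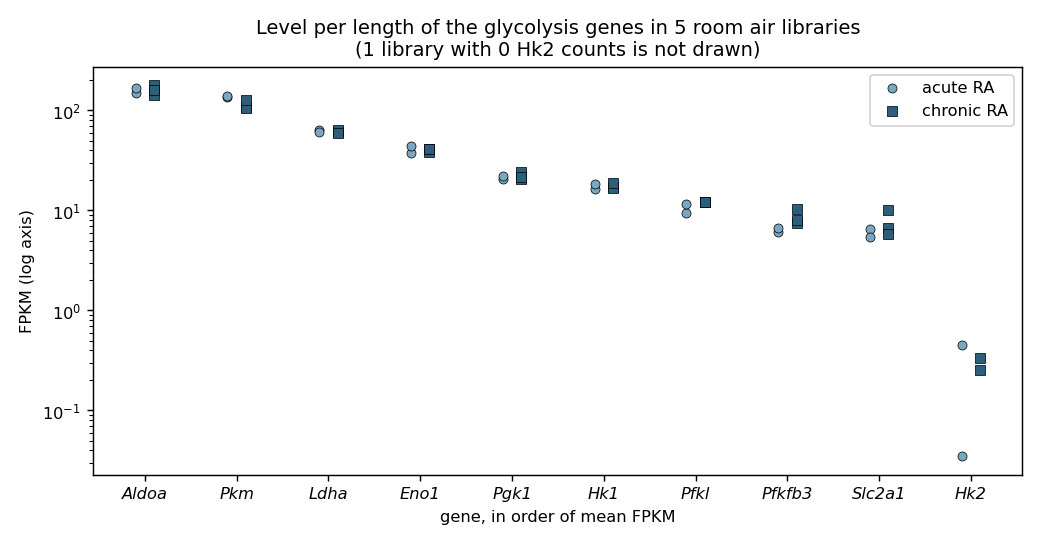
Level per length (FPKM, log axis) of the glycolysis genes in the 5 room air libraries, with circles for the 2 acute RA and squares for the 3 chronic RA libraries and genes in order of mean FPKM. Levels run from 160.4 FPKM for Aldoa to 0.215 FPKM for Hk2, and the ranges of Pfkl, Pfkfb3 and Slc2a1 overlap from one to the next.

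Each gene was then set beside the other isozymes of its family, as shares of summed FPKM. Hk1 held 96.4 ± 2.46% (mean ± SD, n = 2) of hexokinase FPKM in acute RA and 96.9 ± 2.17% (mean ± SD, n = 3) in chronic RA. In acute CS the Hk1 share was 64.8% in one library and 88.6% in the other, while Hk3, a hexokinase known from myeloid cells, held 29.9% and 9.85%. In chronic CS Hk1 held 85.3 to 98.9% and Hk3 0 to 13.6% over the 5 libraries. The fold change of Hk3 after acute CS was not called (log2 3.97, SE 1.76, adjusted p = 0.302 by edgeR), and leukocyte markers were higher in the acute CS libraries, as given above. Aldoa held at least 97.8% of aldolase FPKM in every library, and Pkm all of pyruvate kinase, since Pklr had no counts in any library. Counts per gene do not separate the M1 and M2 splice forms of Pkm.

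Ldha held 91.9 ± 1.46% (mean ± SD, n = 2) of lactate dehydrogenase FPKM in acute RA, 89.9 ± 4.03% (mean ± SD, n = 2) in acute CS, 88.5 ± 1.64% (mean ± SD, n = 3) in chronic RA and 88.3 ± 3.08% (mean ± SD, n = 5) in chronic CS, and Ldhb the rest. Pfkl held 51.1 ± 5.22% (mean ± SD, n = 2) of phosphofructokinase in acute RA and 50.3 ± 0.44% (mean ± SD, n = 2) in acute CS, ahead of Pfkp and Pfkm. Pfkfb3 was the leading PFKFB gene in each group, at 62.0 ± 0.42% in acute RA and 73.0 ± 7.36% in chronic RA. In acute CS its share was 45.2% in one library and 65.8% in the other, with Pfkfb4 at 44.8% and 22.4%. Eno1 held 75.9 ± 5.17% of enolase in acute RA and 63.3 ± 3.96% in acute CS, where Eno3 held 17.5 ± 9.84%. The enolase total counts Eno1b, a near-identical copy of Eno1, as an isozyme of its own, at 16.8 ± 3.35% in acute RA and 18.7 ± 6.0% in acute CS. In chronic CS the shares varied more, from 1.63 to 29.2% for Eno1b and from 63.7 to 90.9% for Eno1. Slc2a1 was not the leading glucose transporter gene per length: it held 9.84 ± 1.36% of its family in acute RA, behind Slc2a10 at 49.4 ± 4.96% and Slc2a8 at 35.5 ± 3.10%.

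**Figure D2:**
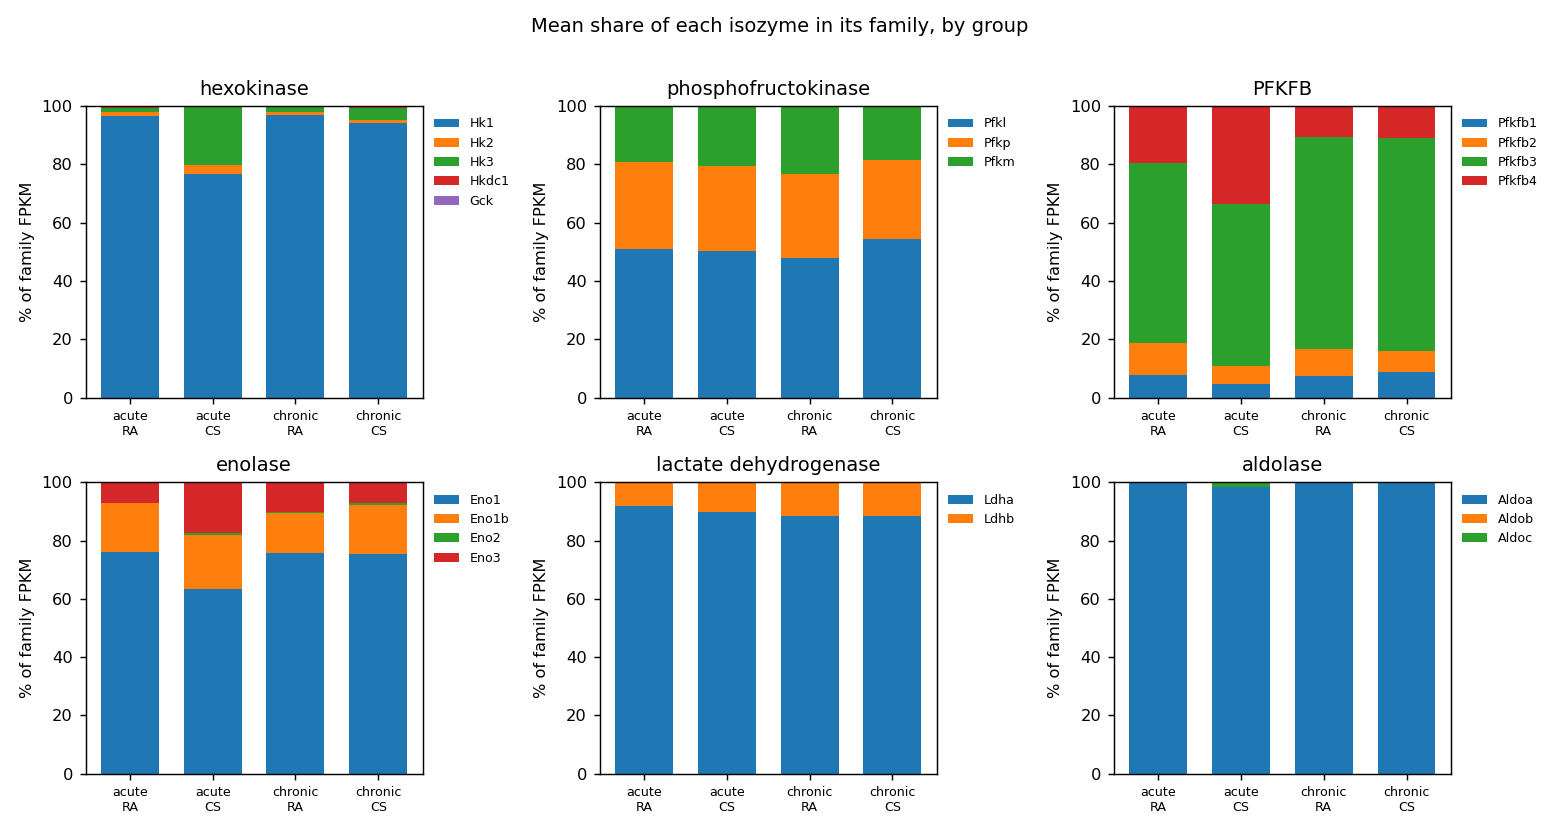
Mean share of each isozyme in the summed FPKM of its family (percent, stacked bars) in the 4 groups, for 6 enzyme families. Hk1 makes up 96.4% of hexokinase in acute RA and less in acute CS, where the mean share of Hk3 is the highest of the 4 groups, while Aldoa and Ldha hold most of their families in every group.

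Log2 ratios between isozymes of a library were compared by exact two-sided permutation tests, with 6 tests adjusted together. They are ratios of counts, not divided by length, so they show differences between groups and not which isozyme is higher, for which the shares of FPKM above stand. The ratio of Ldha to Ldhb was 4.29 ± 0.66 (mean ± SD, n = 2) in acute CS and 4.59 ± 0.28 (mean ± SD, n = 2) in acute RA, and 4.02 ± 0.43 (mean ± SD, n = 5) in chronic CS and 4.02 ± 0.22 (mean ± SD, n = 3) in chronic RA. The ratio of Pfkp to Pfkl was -0.01 ± 0.26 (mean ± SD, n = 5) in chronic CS and 0.27 ± 0.16 (mean ± SD, n = 3) in chronic RA, a difference of -0.28 (exact permutation p = 0.179). That of Hk2 to Hk1 differed by 0.59 in the chronic comparison (SD 1.42 in CS and 2.94 in RA) and by 2.20 in the acute (SD 1.43 and 2.56). In chronic RA M2, with 0 Hk2 counts, this ratio was -11.4, a value set by the prior count. The sign of the chronic difference changed when single libraries were left out. None of the 6 passed (adjusted exact permutation p = 1 for each), and the smallest p that the design allows is 0.333 for the acute and 0.0357 for the chronic comparison.

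Acute CS was compared with acute RA to ask how the LEC transcriptome differs after a short exposure. Of the 10 genes, 0 were called higher and 0 lower by edgeR, beside 2.75% of all genes called higher and 0.723% called lower. The fitted change was upward for 8 genes and downward for 2, with a median log2 fold change of 0.26 beside 0.04 over all genes tested. An unadjusted p under 0.05 was reached by 3 of the 10, beside 15.7% of all genes, and the groups did not overlap for 6 of the 10, beside 50.1%. DESeq2 called 1 of the 10 higher, Ldha, and 0 lower, beside 8.03% of all genes with an adjusted p called higher and 2.88% lower. The median was 0.12 without acute CS M, and 0.33 without acute CS F.

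Ldha (ENSMUSG00000063229, chromosome 7 of GRCm38, 46841475 to 46855627) had the lowest p of the 10. It was counted at 213 CPM in acute RA F and 200.5 CPM in acute RA M, and at 279 CPM in acute CS F and 338 CPM in acute CS M. Both smoke libraries lay above both controls. The log2 fold change was 0.58 (its SE, or standard error, was 0.16, unadjusted p = 0.0036), which did not pass in edgeR (adjusted p = 0.0759) and passed in DESeq2 (adjusted p = 0.00632). In the chronic RA libraries F, M1 and M2 it was counted at 202, 214 and 197 CPM, and in chronic CS F and M1 to M4 at 164, 171, 214, 205 and 170.1 CPM. Chronic CS thus spanned the chronic RA range, and both acute CS libraries lay above all other libraries of the study.

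Pfkfb3 (ENSMUSG00000026773, chromosome 2, 11471433 to 11554077) was counted at 46.1 CPM in acute RA F and 50.2 CPM in acute RA M, and at 66.4 CPM in acute CS F and 78.2 CPM in acute CS M. The groups did not overlap, with a log2 fold change of 0.59 (SE 0.26, adjusted p = 0.308 by edgeR). Chronic RA lay at 56.1, 78.2 and 60.4 CPM in F, M1 and M2, and chronic CS at 74.3, 48.9, 95.1, 73.1 and 65.9 CPM in F and M1 to M4. The chronic RA level was thus above acute RA in each library and reached the level of acute CS in M1. Pfkl (ENSMUSG00000020277, chromosome 10, 77986947 to 78010083) showed a like order, with 63.2 and 77.3 CPM in acute RA and 94.2 and 98.7 CPM in acute CS (log2 fold change 0.46, SE 0.22, adjusted p = 0.359 by edgeR). In chronic RA it lay within 81.3 to 82.0 CPM, between the acute groups.

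Pkm (ENSMUSG00000032294, chromosome 9, 59656368 to 59679375), the last ATP-yielding step, went the other way. It was counted at 685 CPM in acute RA F and 705 CPM in acute RA M, and at 469 CPM in acute CS F and 606 CPM in acute CS M. Both smoke libraries lay below both controls, with a log2 fold change of -0.37 (SE 0.17, unadjusted p = 0.0499, adjusted p = 0.318 by edgeR). Chronic RA lay at 546, 529 and 642 CPM in F, M1 and M2, below acute RA, and chronic CS at 452, 600.3, 570.4, 491 and 553 CPM. Hk1 (ENSMUSG00000037012, chromosome 10, 62268855 to 62379908) was the other gene with a downward value, at 139 and 156 CPM in acute RA and 129 and 130.3 CPM in acute CS (log2 fold change -0.19, SE 0.14, adjusted p = 0.634 by edgeR).

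The remaining genes had small or poorly measured values after acute CS. Eno1 (ENSMUSG00000063524, chromosome 4, 150236721 to 150248879) lay at 202 and 237 CPM in acute RA and 253 and 256 CPM in acute CS, without overlap (log2 fold change 0.21, SE 0.13). Aldoa (ENSMUSG00000030695, chromosome 7, 126795234 to 126800751) overlapped, at 438 and 491 CPM against 467 and 599.9 CPM (log2 fold change 0.20, SE 0.19). Pgk1 (ENSMUSG00000062070, chromosome X, 106187100 to 106203699) lay at 46.2 and 49.5 CPM against 48.2 and 58.0 CPM (log2 fold change 0.15, SE 0.23).

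The groups overlapped for the transporter gene and the inducible hexokinase too. Slc2a1 (ENSMUSG00000028645, chromosome 4, 119108711 to 119137983) lay at 22.8 and 18.9 CPM in acute RA and 21.5 and 29.8 CPM in acute CS (log2 fold change 0.30, SE 0.29). Hk2 (ENSMUSG00000000628, chromosome 6, 82725025 to 82774454) lay at 2.67 and 0.208 CPM in acute RA and 6.58 and 1.61 CPM in acute CS, and its log2 fold change of 1.5 had an SE of 1.77. With this spread between libraries of a group a change in Hk2 could not be resolved. Adjusted p-values from edgeR for these 5 genes lay between 0.505 and 0.863.

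**Figure D3:**
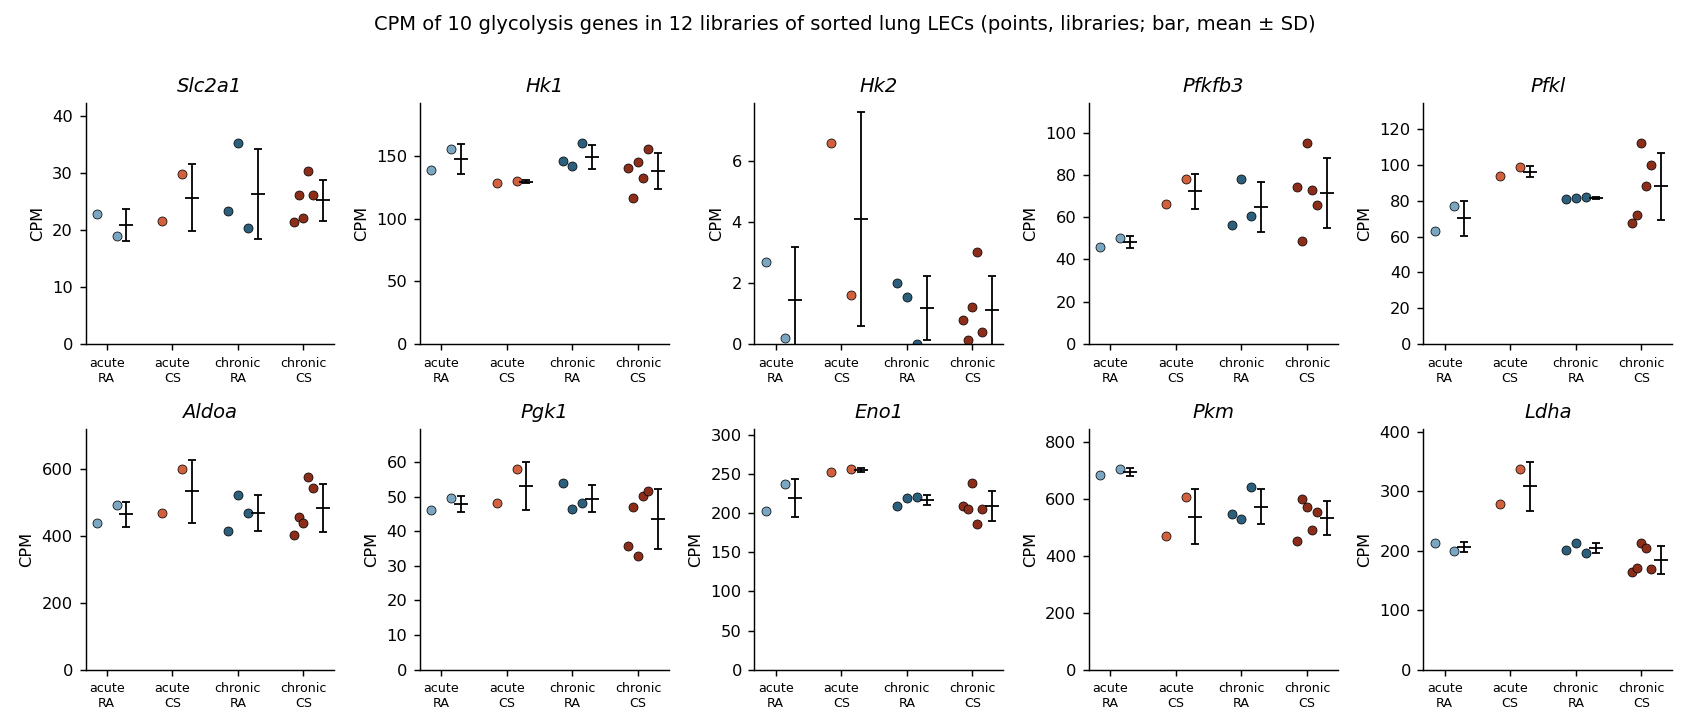
CPM of the 10 glycolysis genes (linear axes from 0) in each of the 12 libraries, as points by group, with the group mean and SD as a bar that is cut off at 0 for Hk2. Ldha is highest in the 2 acute CS libraries, at 279 and 338 CPM, and Pkm is highest in the 2 acute RA libraries, at 685 and 705 CPM.

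Reads from near-identical copies bear on 4 of the genes, because the counting mode used by the authors keeps uniquely mapped reads only. Named pseudogenes or copies took 0.219 to 0.574% of the reads of Ldha and its copies over the 12 libraries, 0.0678 to 0.143% for Aldoa and 0 to 0.371% for Pgk1. For Eno1, the copy Eno1b took 0.623 to 13.8%. Levels of these genes are uncertain to the extent that reads were dropped or split.

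Chronic CS was compared with chronic RA to ask the same of long exposure. In edgeR 0 of the 10 genes were called, as were 0% of all genes, and DESeq2 called 0 of the 10, beside 2.91% of all genes. At an unadjusted p under 0.05 there were 0 of the 10, beside 10.9% of all genes, and the groups overlapped for all 10, beside 9.41% of genes without overlap. The fitted log2 fold changes lay between -0.18 and 0.14 with a median of -0.07, 3 upward and 7 downward. Slc2a1 and Eno1 turned upward when libraries were scaled by size alone. Hk2, Pgk1 and Aldoa also changed direction under other alternatives, given in the last section, so the split is not firm. In the main fit the values upward were those of Pfkfb3 (0.14), Pfkl (0.11) and Aldoa (0.04). Outside Hk2, the 95% intervals in the fit reached no further than -0.55 for Pgk1 and 0.56 for Pfkfb3.

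The 5 chronic CS libraries varied among themselves. Pfkl ranged from 67.6 to 112 CPM with a median of 88.6 CPM over the 5 libraries, and Pgk1 from 32.8 to 51.7 CPM with a median of 46.8 CPM. The summed CPM of the 10 genes was 1777 ± 128 (mean ± SD, n = 5) in chronic CS, 1834 ± 86.8 (mean ± SD, n = 3) in chronic RA, 1922 ± 90.0 (mean ± SD, n = 2) in acute RA and 2015 ± 257 (mean ± SD, n = 2) in acute CS. Alveolar epithelial markers summed to 253 to 513 CPM in chronic RA and 1179 to 5027 CPM in chronic CS, mesenchymal markers to 123 to 153 CPM and 225 to 370.4 CPM, and neutrophil markers to 15.3 to 20.1 CPM and 27.4 to 159 CPM. The sum of the blood endothelial markers was lower, at 15416 to 16149 CPM and 10764 to 14489 CPM. The chronic groups did not overlap in these 4 sums. Gene by gene, 8 of the 12 blood endothelial markers went up in the fit, 4 went down and edgeR called 0. Aqp1, the most abundant of them, lay at 6682 to 7511 CPM in chronic RA and 3888 to 6189 CPM in chronic CS. Vwf went the other way, at 51.0 to 61.4 CPM and 88.6 to 276 CPM. The lowest total counts of all 12 libraries were those of chronic CS F, M1 and M2. With only the deeper M3 and M4 in chronic CS, the median log2 fold change was 0.07.

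**Figure D4:**
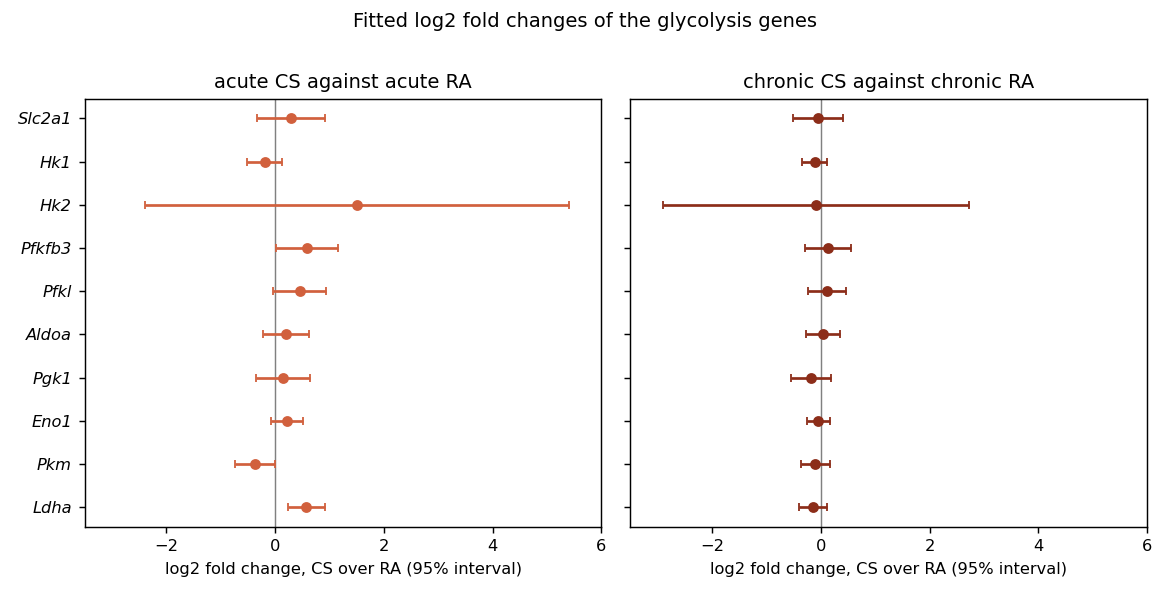
Fitted log2 fold changes of CS over RA with 95% intervals from edgeR for the 10 genes, after acute (left) and chronic (right) exposure. After acute CS the values run from -0.37 for Pkm to 1.5 for Hk2, whose interval is the widest, and after chronic CS every interval includes 0.

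The acute effect minus the chronic effect tested whether the response to smoke differed with the length of exposure. Again 0 of the 10 were called by edgeR, beside 0.452% of all genes, and DESeq2 called 1, Ldha (adjusted p = 0.0200), beside 5.23% of all genes. The difference for Ldha was 0.72 on the log2 scale (SE 0.19, unadjusted p = 0.0033, adjusted p = 0.147 by edgeR), which made it 1 of 10 at an unadjusted p under 0.05, beside 11.9% of all genes. For Pkm the difference was -0.27 (SE 0.21) and for Pfkfb3 it was 0.45 (SE 0.32). The median over the 10 was 0.34, beside 0.04 over all genes, and it was smaller with only M3 and M4 in chronic CS, as given in the last section.

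The room air controls were compared to see how the genes differ between the times without smoke. In edgeR 0 of the 10 were called, beside 0% of all genes, and DESeq2 called 0 of the 10, beside 1.55%. At an unadjusted p under 0.05 there were 0, beside 7.01% of all genes. The groups did not overlap for 3 of the 10, Pfkfb3, Pfkl and Pkm, beside 34.7% of all genes. Chronic RA against acute RA gave log2 fold changes of 0.43 for Pfkfb3 (SE 0.24), 0.22 for Pfkl (SE 0.20) and -0.28 for Pkm (SE 0.15). These comparisons share the acute RA libraries with the acute comparison, so their values are not independent of those above.

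The rest of glucose metabolism was described through lists of related genes. After acute CS, 3 of 7 pentose phosphate genes were called higher and 0 lower by edgeR, and 4 higher and 0 lower by DESeq2. Over all genes edgeR called 2.75% higher and 0.723% lower, and DESeq2 8.03% and 2.88%, which are also the shares beside the lists that follow. They were G6pdx, which encodes the enzyme of the committed step, Pgd, which encodes the second NADPH-yielding enzyme, and Taldo1, which encodes transaldolase. G6pdx was counted at 27.6 and 24.3 CPM in acute RA F and M and rose to 79.5 and 50.1 CPM in acute CS F and M, a log2 fold change of 1.32 (SE 0.27, adjusted p = 0.0221 by edgeR). Pgd rose from 43.7 and 40.5 CPM to 115 and 80.0 CPM, a log2 fold change of 1.21 (SE 0.19, adjusted p = 0.0081 by edgeR). Taldo1 rose from 139.6 and 151 CPM to 301 and 251 CPM, a log2 fold change of 0.92 (SE 0.17, adjusted p = 0.0146 by edgeR).

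Each smoke library lay above each control for these genes, and acute CS F above acute CS M. Tkt, which encodes transketolase, lay at 90.1 and 102 CPM in acute RA and 145 and 149.6 CPM in acute CS (log2 fold change 0.62), which was not called by edgeR (adjusted p = 0.123) and was the fourth gene called by DESeq2, and Pgls, the lactonase gene, had a log2 fold change of 0.29. Of all 7 genes of the list, 6 had an upward and 1 a downward value, the lowest being -0.03. All 3 calls were lost with the chronic groups left out of the fit (edgeR's adjusted p from 0.0963 to 0.119), and also without acute RA F, acute RA M or acute CS F, or with replicate blocks. The summed leukocyte, alveolar macrophage, lymphoid and mesenchymal markers were higher in the same 2 libraries, with the values given above, and their part in these values was not tested. After chronic CS 0 of the 7 were called by edgeR or DESeq2, with 0 at an unadjusted p under 0.05, and the levels of G6pdx were 27.7 ± 1.29 CPM (mean ± SD, n = 3) in chronic RA and 28.2 ± 5.57 CPM (mean ± SD, n = 5) in chronic CS.

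**Figure D5:**
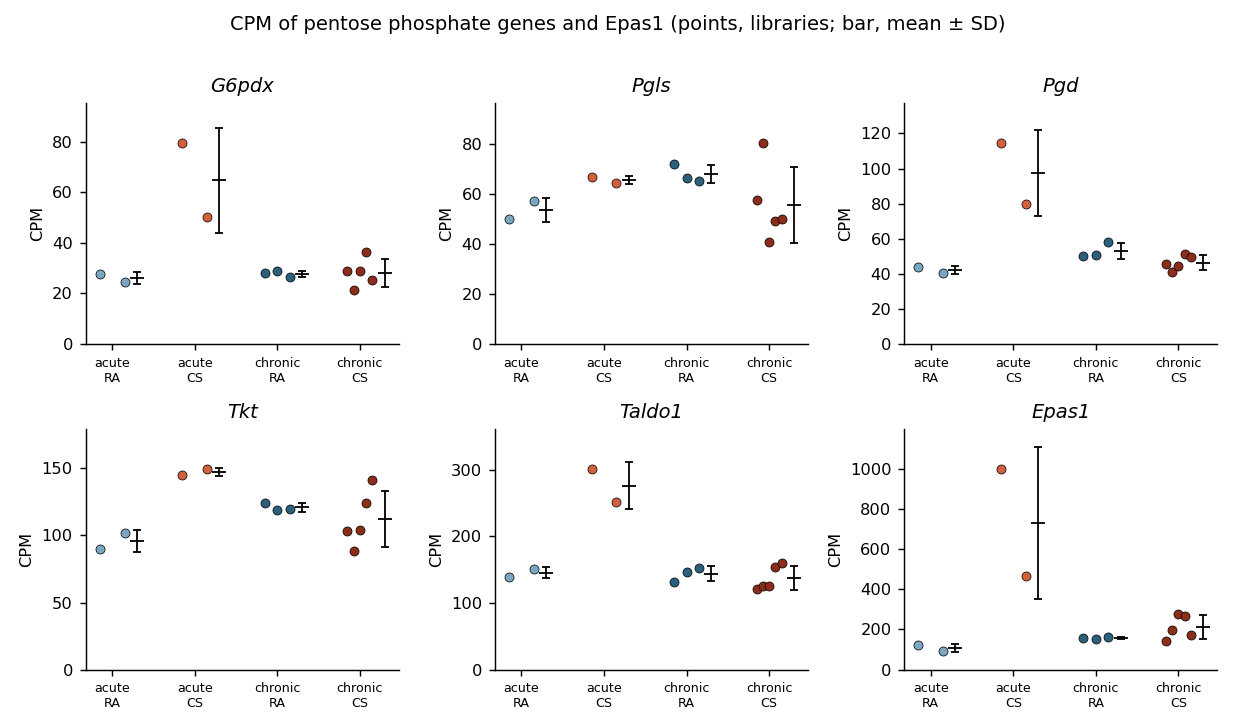
CPM of 5 pentose phosphate genes and Epas1 (linear axes from 0) in each of the 12 libraries, as points by group, with the group mean and SD as a bar. G6pdx, Pgd, Taldo1 and Epas1 are highest in the 2 acute CS libraries, with acute CS F above acute CS M.

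Among 21 HIF genes and targets outside the 10, only Epas1 was called by edgeR after acute CS, and DESeq2 called 4 higher and 1 lower. Epas1, which encodes the endothelial HIF-2 alpha subunit, was counted at 124 CPM in acute RA F and 95.3 CPM in acute RA M and rose to 998 and 464 CPM in acute CS F and M. The log2 fold change was 2.74 (SE 0.39, adjusted p = 0.0057 by edgeR), and the call was lost with the chronic groups left out of the fit (0.0844) and without acute RA F (0.0515) or acute RA M (0.0919). Of 12 blood endothelial markers, edgeR called 5 higher in the same libraries (Vwf, Flt1, Car4, Ednrb and Nos3) and 0 lower. Flt1, a VEGF receptor gene, lay at 26.2 and 11.03 CPM in acute RA F and M and at 338 and 214 CPM in acute CS F and M, and Car4, a marker of lung capillaries, at 41.5 and 34.5 CPM and at 670 and 292 CPM. Like Epas1, both were higher in acute CS F than in acute CS M, while Vwf was the other way round, at 1074 and 1829 CPM. Of the most abundant of the 12, none was called, with log2 fold changes of -0.45 for Aqp1, -0.39 for Kdr and -0.09 for Cldn5, each without overlap, and 0.14 for Plvap. The part of blood endothelial cells in the value of Epas1 was not tested. The list's median log2 fold change was 0.34, and 5 of the 21 had an unadjusted p under 0.05 upward and 1 downward, beside 15.7% of all genes in either direction. Bnip3l, a mitophagy receptor gene, lay at 165 ± 6.35 CPM (mean ± SD, n = 2) in acute RA and 233 ± 8.10 CPM (mean ± SD, n = 2) in acute CS (adjusted p = 0.0805 by edgeR). Ndrg1, known as a hypoxia-responsive gene, lay at 387 and 363 CPM in acute RA and at 164 and 381 CPM in acute CS, so that the acute CS libraries parted.

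Of 18 other glycolytic enzyme genes, 15 were tested and 0 were called by edgeR after acute CS, with 4 at an unadjusted p under 0.05 upward, beside the 15.7% of all genes in either direction, and a median of 0.63. DESeq2 called 2 higher, Bpgm and Eno3. The 3 with the highest CPM had smaller values, with log2 fold changes of 0.11 for the isomerase gene Gpi1, 0.19 for Tpi1, which encodes triosephosphate isomerase, and 0.15 for Gapdh, which follows it in the pathway. Gapdh was counted at 263 ± 9.58 CPM (mean ± SD, n = 2) in acute RA and 292 ± 53.6 CPM (mean ± SD, n = 2) in acute CS, and its level is uncertain because many processed copies exist. Among 4 genes that set fructose 2,6-bisphosphate besides Pfkfb3, edgeR called 0 and DESeq2 called 1, Pfkfb4, which was also the 1 gene at an unadjusted p under 0.05. Pfkfb4 lay at 8.21 and 11.4 CPM in acute RA and 42.5 and 17.1 CPM in acute CS (log2 fold change 1.61, adjusted p = 0.140 by edgeR), while Pfkfb2 (0.02) and Tigar (-0.16) had log2 fold changes near 0.

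Of 14 hexose and monocarboxylate transporter genes 13 were tested, and edgeR called 0 after acute CS, with 3 at an unadjusted p under 0.05 upward, beside the 15.7%. DESeq2 called 2 higher, Slc2a3 and the lactate exporter gene Slc16a3. Slc2a8 and Slc2a10 had downward values of -0.25 and -0.38 on the log2 scale, and Bsg, the chaperone of lactate transporters, had 0.02. For 12 genes of pyruvate entry into mitochondria, edgeR called 0 and DESeq2 called 1 lower, Dld, with 1 at an unadjusted p under 0.05 downward, beside the 15.7%, and a median of 0.20. Dld, a shared subunit of the dehydrogenase complexes, lay at 135 and 143 CPM in acute RA and 101 and 111 CPM in acute CS (log2 fold change -0.40, adjusted p = 0.131 by edgeR), with -0.18 for Pdhb and 0.03 for Pdha1. For gluconeogenesis 4 of 7 genes were tested, and 0 were called by edgeR or DESeq2 and 0 had an unadjusted p under 0.05, with log2 fold changes of 0.55 for Pcx, -0.09 for Pck2 and -0.19 for G6pc3. After chronic CS edgeR called 0 genes of these 7 lists, and DESeq2 called 1, the HIF target P4ha2, beside 2.91% of all genes. An unadjusted p under 0.05 was reached by 10.9% of all genes in either direction. Beside this, it was reached by 1 gene upward and 1 downward of 4 for gluconeogenesis, and 2 upward and 1 downward of 21 in the HIF list. There were also 2 downward of 13 transporter genes, 1 downward of 15 other glycolytic enzyme genes, and 0 in the other lists.

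The 10 genes were compared with each other over the libraries as a description, with no test and no other set of genes beside them. Of 45 pairs, 34 had a positive Pearson r of log2 CPM over the 12 libraries, with a median of 0.13. The highest was 0.71 for Eno1 and Ldha and 0.69 for Pfkfb3 and Pfkl, and the lowest -0.55 for Pfkfb3 and Pkm. The mean z-score of the 10 was highest in acute CS M (1.002) and lowest in chronic CS F (-0.78). The genes outside the 10 most like this mean were Maea (r = 0.94), Lpxn (0.91), Rheb (0.90), Anxa4 (0.88) and Slain1 (0.87), taken as the 5 highest of all genes tested. These correlations describe 12 libraries that share groups, depth and preparation.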

How the data were processed

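RNA of sorted lung LECs was measured in 12 libraries made with a SMART-Seq v4 kit and a Nextera XT kit. The deposited values are whole-number read counts for each Ensembl gene identifier, not normalized. To make them the authors trimmed adapters (Skewer), filtered reads (Minion) and used STAR on GRCm38, in its GeneCounts mode. The submitters' processing notes also name FastQC 0.11.9. The annotation release and strand setting are not given in the sources used here.

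The software was edgeR 4.0.16, DESeq2 1.42.0 and limma 3.58.1 under R 4.3.3, with scipy 1.17.1, pandas 2.3.3 and matplotlib 3.10.9 under Python 3.11.15. Names, positions and exon lengths came from the GENCODE M21 annotation of the reference chromosomes, in which 233 identifiers (at most 0.0733% of a library) were not found. After edgeR's filter by expression 21440 genes were fitted in a single quasi-likelihood model of the 4 groups over all 12 libraries, scaled by TMM. The fit was also run on simulated counts with planted changes. These did not hold the differences in other-cell markers between the acute CS libraries, so the run does not measure error in these data. FPKM used the union of exons, and log2 CPM a prior count of 2. A floor of 3 counts was worth 0.0526 CPM in the deepest and 0.159 CPM in the shallowest library, and covers counting error only, since reads carry no molecular identifiers. No 2 libraries of a group agreed within sampling noise. Exact permutation tests were two-sided.

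Named genes were the 10 members, isozymes of their families, every called gene of the related lists and the 3 genes of each list with the highest mean CPM. The 5 genes most like the members had the highest Pearson r with their mean z-score. The members, lists and this rule were chosen with earlier results of these data known. Alternatives were DESeq2, no filter, scaling by library size, a covariate for sex, only the groups compared, replicate blocks, robust estimation, leaving out each library and the deeper or shallower chronic CS libraries only. Those for the pentose phosphate genes and Epas1 were chosen after seeing the data. Promoter windows came from RefSeq (GRCm38.p6). Cultured cells and human tissue were not analysed here.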

Additional observations from a re-analysis of the deposited data

Results flagged for a closer look

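The acute and the chronic effect of smoke on Pgd, the pentose phosphate gene of 6-phosphogluconate dehydrogenase, differed by a test of the difference itself. The acute minus the chronic log2 value was 1.40 (SE 0.23, adjusted p = 0.0406 by edgeR), from an acute value of 1.21 and a chronic value of -0.19. The call was lost with sex as a covariate (adjusted p = 0.0578 by edgeR), with replicate blocks (0.147) and without each of 9 single libraries in turn, which were acute RA F (0.189), acute RA M (0.227), acute CS F (0.158), each of chronic RA (0.0990 to 0.118) and chronic CS F (0.0542), M1 (0.0613) and M4 (0.0562). Both acute CS libraries lay above the other 10. Chronic CS was the only group large enough to search for a single library standing apart, and 0 of 37 measures of its 5 libraries did so.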

How the results depend on the processing

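The count of glycolysis genes called stayed at 0 under each alternative except DESeq2, which called 1, Ldha, after acute CS and 1, Ldha, for the acute minus the chronic effect. Over the alternatives, edgeR's adjusted p for Ldha after acute CS ran from 0.0728 (robust estimation) to 0.440 (without acute RA M). The median log2 fold change of the 10 genes ranged from 0.12 (without acute CS M) to 0.33 (without acute CS F) after acute CS, when single libraries were left out. For chronic RA against acute RA it ranged from 0.0032 to 0.080 (without acute RA M) in the same way, and was -0.091 with library size in place of TMM. With chronic CS M3 and M4 only, it was 0.071 after chronic CS and 0.22 for the acute minus the chronic effect. The causes were not tested.

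The pentose phosphate genes called after acute CS numbered 0 with only the groups compared, and 0 to 3 when single libraries were left out (0 without acute RA F, acute RA M or acute CS F). With the replicate block of sex and number 0 pentose phosphate genes were called, and the calls over all genes fell from 745 to 73. The numbers do not mark shared animals, and deviations of same-numbered libraries correlated at 0.069 in the acute and -0.042, 0.034 and 0.0060 in the chronic groups, so the libraries were not treated as pairs. Blocks were set within the acute and within the chronic libraries, and none was fitted for chronic RA against acute RA because these groups share only 1 replicate label, F. Over all genes after acute CS, DESeq2 called 1961, only the groups compared gave 139, and leaving out a library gave 3 (acute RA M) to 858 (acute CS M).

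Directions that turned were of values that no setting called. With DESeq2 Aldoa was at -0.0083 for chronic RA against acute RA. With library size scaling, Slc2a1 was at 0.022 and Eno1 at 0.038 after chronic CS, and Hk1 at -0.086, Aldoa at -0.096 and Pgk1 at -0.058 between the controls. With sex as a covariate, Hk2 was at 0.44 after chronic CS and 0.37 between the controls, where Aldoa was at -0.038. With the replicate block, Aldoa was at -0.11 and Eno1 at 0.0061 after chronic CS. With chronic CS F, M1 and M2 only, Aldoa was at -0.098 and Eno1 at 0.025. With M3 and M4 only, Slc2a1 was at 0.099, Hk2 at 0.52 and Pgk1 at 0.044, and the acute minus the chronic effect of Aldoa was -0.055.

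Leaving out single libraries gave ranges across 0 for chronic CS of -0.027 to 0.14 (Aldoa), -0.91 to 0.55 (Hk2) and -0.21 to 0.22 (Slc2a1). Between the controls the ranges were -0.081 to 0.082 (Aldoa), -0.13 to 0.079 (Eno1), -0.061 to 0.090 (Hk1), -1.20 to 2.48 (Hk2), -0.076 to 0.026 (Ldha) and -0.028 to 0.084 (Pgk1), and for the acute minus the chronic effect -0.037 to 0.33 (Aldoa). For the log2 ratios they were -1.11 to 1.52 (Hk2 to Hk1, chronic), -0.77 to 0.16 (Ldha to Ldhb, acute), -0.16 to 0.14 (Ldha to Ldhb, chronic) and -0.091 to 0.057 (Pfkp to Pfkl, acute). The 2 libraries per acute group limit every acute value. Hk2 had 158 and 11 counts in the acute RA libraries, which had the highest totals, and 0 in chronic RA M2, below the floor of 3 counts.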
